A study of Homo sapiens with 2 samples.

Results

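The genes described here are 10 AP-1 and immediate-early genes: the FOS family (FOS, FOSB, FOSL1 and FOSL2), the JUN family (JUN, JUNB and JUND) and 3 further immediate-early genes (EGR1, ATF3 and IER3). They were chosen by name from the 21382 genes of the deposited expression table, and all 10 were found there. RNA-Seq of total RNA was performed on MDA PCa 2b cells and on RC77 T/E cells, 2 established human lines of prostate cancer, with 1 library for each. Neither line was treated. MDA PCa 2b was grown in a modified Ham's F-12 medium with 20% fetal bovine serum, 10 ng/ml mouse epidermal growth factor (EGF), 100 pg/ml hydrocortisone, insulin and cholera toxin, which is known to raise cAMP, among its additives, and RC77 T/E in a keratinocyte serum-free medium with EGF and bovine pituitary extract. The line and its medium cannot be told apart in this design, and no difference below has a replicate check.

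AP-1 is a dimeric transcription factor whose subunits carry a basic leucine zipper. JUN proteins pair with each other or with FOS proteins, FOS proteins need a JUN partner, and the subunit makeup sets how strongly the dimer binds and activates its sites. Many of these genes are immediate-early genes: growth factors and serum act through the ERK kinases and the serum response factor to switch them on within minutes, without new protein synthesis, so their mRNA level depends on how the cells were kept before harvest. In prostate epithelium, AP-1 subunits are known to differ between basal-like and luminal cells.

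Expression was deposited as TPM, a transcript measure scaled by gene length and by the whole library that holds no read numbers, so depth is unknown. In the table, values from 1 TPM upwards had lost their decimal mark where they had 3 decimals or more. The position of the mark was restored from the mean and standard error that stand beside both values. It was settled for 3 of the 10 genes (FOSB, FOSL1 and EGR1). For 6 genes 2 positions matched, and for JUN 3 positions matched, always shifted together in both libraries. For these 7 genes the ratio between the cell lines is therefore known, while the deposited table alone gives the level only as 2 or 3 alternatives a factor of 10 apart.

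The cell lines were checked against markers of prostate epithelium. KRT18 was at 320 TPM in MDA PCa 2b against 325 TPM in RC77 T/E, and all 4 epithelial markers were at 1 TPM or more in both. The luminal marker KLK3 was at 5323 TPM in MDA PCa 2b, whereas in RC77 T/E it was listed at 0. The basal keratin KRT5 was at 0.00435 TPM in MDA PCa 2b against 4027 TPM in RC77 T/E. KRT14, another basal keratin, was at 37.4 and 3255 TPM, and MDA PCa 2b held 2 of the 4 basal markers at 1 TPM or more, whereas RC77 T/E held 0 of the 4 luminal markers at that level. Of the 4 leukocyte markers, CD68 alone reached 1 TPM (0.663 TPM in MDA PCa 2b against 37.9 TPM in RC77 T/E), and PTPRC was at 0.0113 TPM and listed at 0. Of the 4 fibroblast markers, COL1A1 alone reached it (0.554 and 8.24 TPM). No endothelial or platelet marker did in either library.

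The promoters of these genes are shown first, because many of these genes are known to answer to ERK and cAMP signals and to AP-1 itself. Whether their promoter motifs bear on the differences between the cell lines was not tested. Promoter sequences came from RefSeq (GRCh38.p14), which matched 8 of the 10 genes, all but FOSL1 and IER3. The 250 bases before each start were searched on both strands. The AP-1 site was searched as TGACTCA. The cAMP response element (CRE), which CREB and ATF proteins bind, was searched whole, as TGACGTCA, and by its opening letters TGACG, so that every match of the whole is also a match of the shorter motif. A variant of it known from the JUN promoter was searched as TGACATCA. The CArG box, to which serum response factor binds, and the TATA motif TATAAA were searched as well. EGR1, whose protein is a zinc finger factor, is shown for its CArG boxes, and 6 others for their CRE-like bases, with matches in capitals. FOSL2, which holds TGACG at 2 places, is not shown, and the JUN stretch leaves out a TGACG farther from the start.
EGR1, chr5:138465334-138465427, plus strand: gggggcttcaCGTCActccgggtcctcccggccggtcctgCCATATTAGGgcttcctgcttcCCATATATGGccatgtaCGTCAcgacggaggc
FOS, chr14:75278754-75278778, plus strand: gttgagcccgTGACGtttacactca
FOSB, chr19:45467926-45467950, plus strand: aaggggcgggTGACGtaagcagggg
JUN, chr1:58784097-58784124, minus strand: ggccttggggTGACATCAtgggctattt
JUNB, chr19:12791339-12791363, plus strand: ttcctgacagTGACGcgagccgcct
JUND, chr19:18281694-18281832, minus strand: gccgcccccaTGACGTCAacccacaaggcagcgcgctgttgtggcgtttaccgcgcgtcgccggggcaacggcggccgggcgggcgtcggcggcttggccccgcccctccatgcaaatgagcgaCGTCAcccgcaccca
ATF3, chr1:212565274-212565301, plus strand: acctatgataTGACATCAtatggccact
TGACG was present in 7 of the 8 genes, compared with 21.2% of the 35116 promoters of the set. ATF3 was the exception. The complete CRE was present in 1 gene, JUND (1.65% of all promoters), TGACATCA in 2, JUN and ATF3 (2.37%), and the CArG box in 1, EGR1 (1.16%), which holds 2 copies. TATAAA was present in 4 (10.7%), in ATF3 only in a second promoter that is not shown, and TGACTCA in 0 (4.20%). Genes were counted over all their promoters, whereas the percentages count single promoters. A match describes these letters in this window and shows no binding. Bases farther than 250 from the start and other forms of these motifs were not searched. A missing match therefore does not show that a gene lacks such a site.

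FOS family genes were higher in RC77 T/E. FOSL1 (ENSG00000175592, chr11:65892049-65900573, minus strand) encodes FRA-1, a subunit known for its part in invasion, and had the largest ratio of the 10 genes. It was at 0.147 TPM in MDA PCa 2b against 43.2 TPM in RC77 T/E, a ratio of 293.5, and both values were settled. The MDA PCa 2b value is so low that the ratio has little precision. On the scale of log2(TPM + 1) used to compare genes, FOSL1 differed by 5.27, and 171 of the 11624 genes whose mean was 1 TPM or more differed by more in that direction.

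FOS (ENSG00000170345, chr14:75278826-75282230) is the classical immediate-early subunit. It was at 1.93 TPM in MDA PCa 2b against 28.5 TPM in RC77 T/E at the lowest position, or 19.3 and 285 TPM at the highest, a ratio of 14.8 in either case. FOSL2 (ENSG00000075426, chr2:28392448-28417317), which encodes the more stable FRA-2, was at 5.14 and 24.3 TPM or at 51.4 and 243 TPM, a ratio of 4.72. FOSB (ENSG00000125740, chr19:45467995-45475179) was the lowest member of the family in both libraries, at 0.0427 TPM in MDA PCa 2b against 1.13 TPM in RC77 T/E. Its ratio of 26.4 rests on a value near 0. FOSB has a mean under 1 TPM, and it overlaps ERCC1, a DNA repair gene on the opposite strand, over its 7185 bases. The ERCC1 ratio was 3.16.

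**Figure D1:**
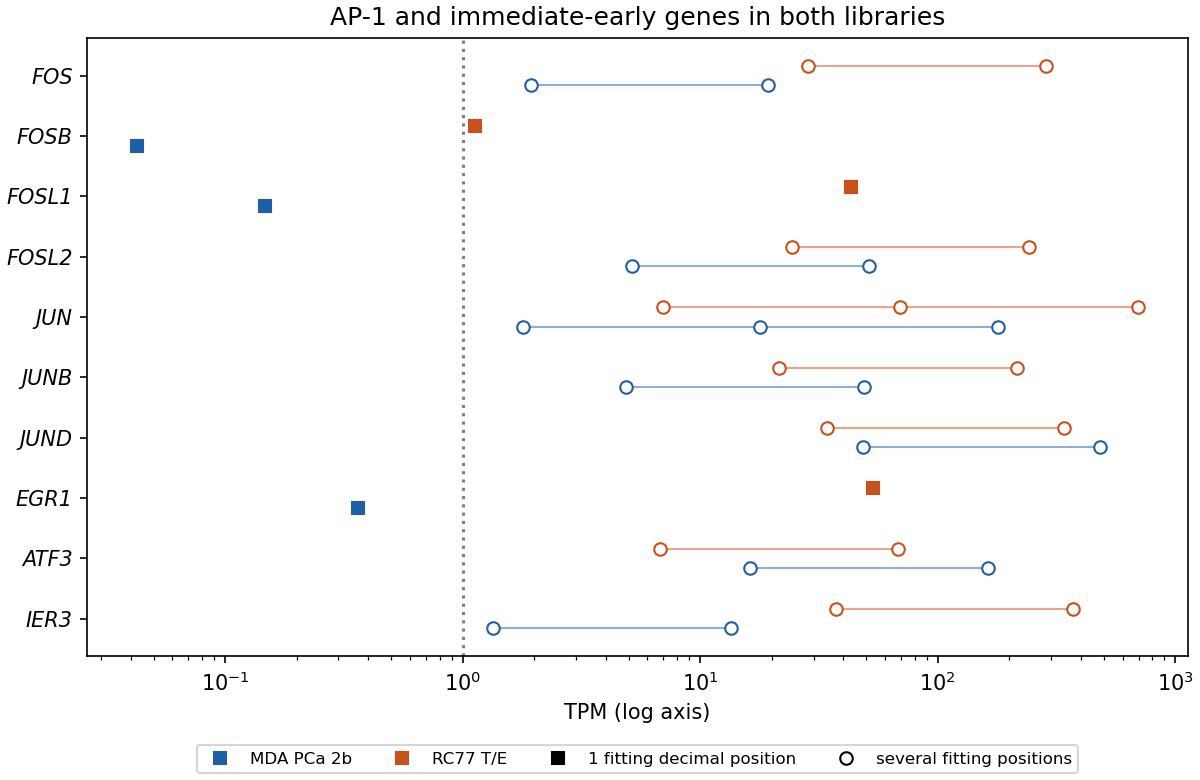
TPM (log axis) of the 10 genes in MDA PCa 2b (blue) and RC77 T/E (orange). Filled squares are settled values, open circles joined by a line are the alternative values of 1 measurement, and the dotted line marks 1 TPM. FOSL1 and EGR1 lie under it in MDA PCa 2b and at 43.2 and 53.4 TPM in RC77 T/E.

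JUN family genes split. JUN (ENSG00000177606, chr1:58776845-58784048, minus strand), the strongest activator of the family and a target of the JNK kinases, was at 1.79 TPM in MDA PCa 2b against 6.96 TPM in RC77 T/E at the lowest position and 10 times or 100 times that at the others, a ratio of 3.89. JUNB (ENSG00000171223, chr19:12791486-12793315), which can restrain JUN, was at 4.88 and 21.5 TPM or at 48.8 and 215 TPM, a ratio of 4.41. HOOK2, which overlaps JUNB on the opposite strand over 1820 bases of the GENCODE annotation, had a ratio of 0.619, in the other direction. JUND (ENSG00000130522, chr19:18279694-18281622, minus strand), usually made at a steady level in resting cells, was at 48.3 and 34.1 TPM or at 483 and 341 TPM, a ratio of 0.705. JUND was the one subunit of the 7 that was not higher in RC77 T/E, with a log2 difference of -0.49, and it did not reach 2-fold.

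The other immediate-early genes went both ways. EGR1 (ENSG00000120738, chr5:138465479-138469303), a zinc finger factor that ERK signals switch on through CArG boxes, was at 0.362 TPM in MDA PCa 2b against 53.4 TPM in RC77 T/E, a ratio of 147. Both values were settled, and 164 genes differed by more in that direction. IER3 (ENSG00000137331, chr6:30743199-30744548, minus strand), a stress-response gene that affects cell survival, was at 1.35 and 37.2 TPM or at 13.5 and 372 TPM, a ratio of 27.6. It is listed at 6 loci, 5 of them at 0 in both libraries. ATF3 (ENSG00000162772, chr1:212565334-212620777), a stress-induced factor that pairs with JUN proteins and often represses, was at 16.2 and 6.78 TPM or at 162 and 67.8 TPM, so that it was 2.39-fold higher in MDA PCa 2b.

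Called here means at least 2-fold on the log2(TPM + 1) scale, lowest positions, among genes whose mean was 1 TPM or more. Of the 10 genes, 9 passed that filter, and 2 of these (FOSL1 and EGR1) passed it through RC77 T/E alone, so that they had to differ. Of the 9, 7 were higher by 2-fold or more in RC77 T/E, beside 19.4% of the 11624 genes, and 1 (ATF3) was at least 2-fold higher in MDA PCa 2b, beside 20.0%. With no filter, FOSB joined the former, making 8 of 10 beside 11.3% of 21382 genes, and ATF3 stayed the 1 gene in the other direction beside 11.4%. The ATF3 call ended when the ratios were centred on the median of all genes or when both libraries were scaled to 1 upper quartile, with log2 differences just short of 2-fold (-0.99 and -0.95 in place of -1.15). Before any centring the median log2 ratio of the 11624 genes was -0.15, and after that scaling it was 0.05. The sign of all 10 log2 differences, JUND included, was the same under both.

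**Figure D2:**
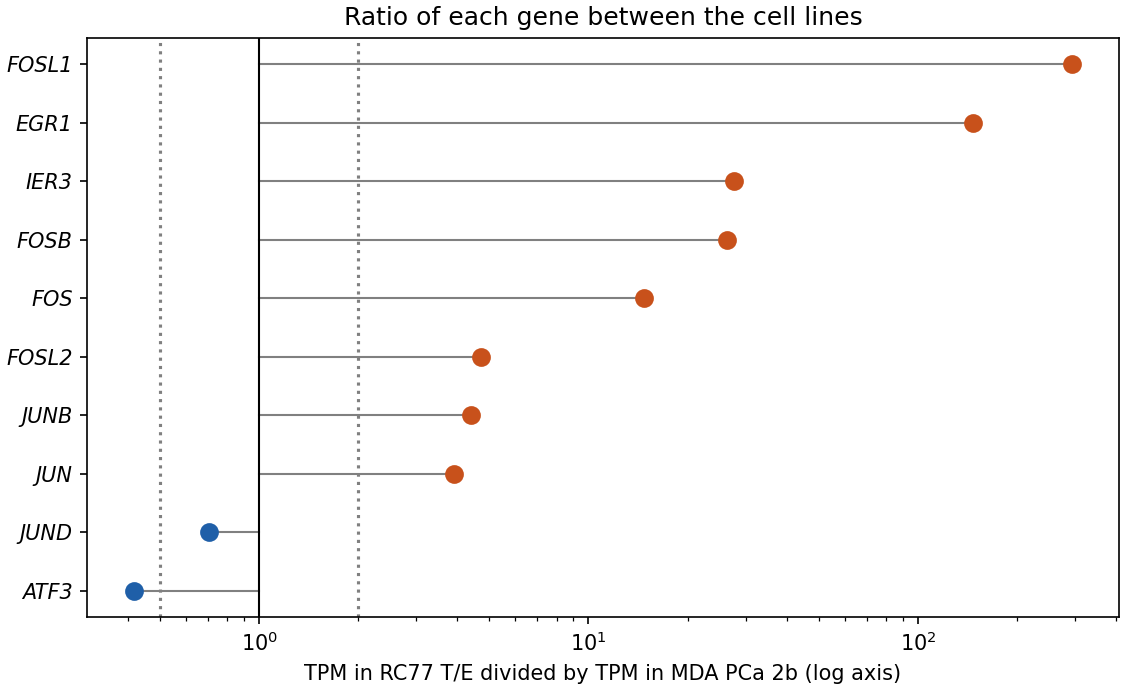
TPM in RC77 T/E divided by TPM in MDA PCa 2b for each of the 10 genes (log axis), a quantity that does not depend on the decimal position. The dotted lines mark 2-fold in each direction. The ratio runs from 0.418 for ATF3 to 293.5 for FOSL1.

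Which subunit dominates each library depends in part on the open positions. For the FOS family 4 combinations of positions are possible. In MDA PCa 2b, FOSL2 was the most abundant FOS family mRNA in 3 of the 4, with 70.8% of the family's TPM at the lowest positions and between 20.8% and 96.0% over all, and FOS in 1. FOSL1 made up at most 2.02% and FOSB at most 0.588% there in any combination. In RC77 T/E, FOS led in 2 combinations and FOSL1 and FOSL2 in 1 each. FOSL1 held 44.5% at the lowest positions and never under 7.54%, so its share was higher in RC77 T/E in each of the 4 combinations, by between 7.34 and 42.4 percentage points. FOSL2 had the lowest ratio of the family, and its share was accordingly lower in RC77 T/E in each combination.

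For the JUN family 12 combinations are possible. In MDA PCa 2b, JUND led in 8 of the 12, with 87.9% at the lowest positions and between 17.5% and 98.6% over all, while JUN and JUNB led in 2 each. In RC77 T/E, JUND and JUN led in 5 each and JUNB in 2, and JUND held 54.5% at the lowest positions. Over both families, with 48 combinations, JUND was the most abundant subunit of MDA PCa 2b in 28, and in RC77 T/E JUN led in 17, JUND in 16, FOS in 8, FOSL2 in 4, JUNB in 2 and FOSL1 in 1. These counts weigh every combination alike and are no probabilities.

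**Figure D3:**
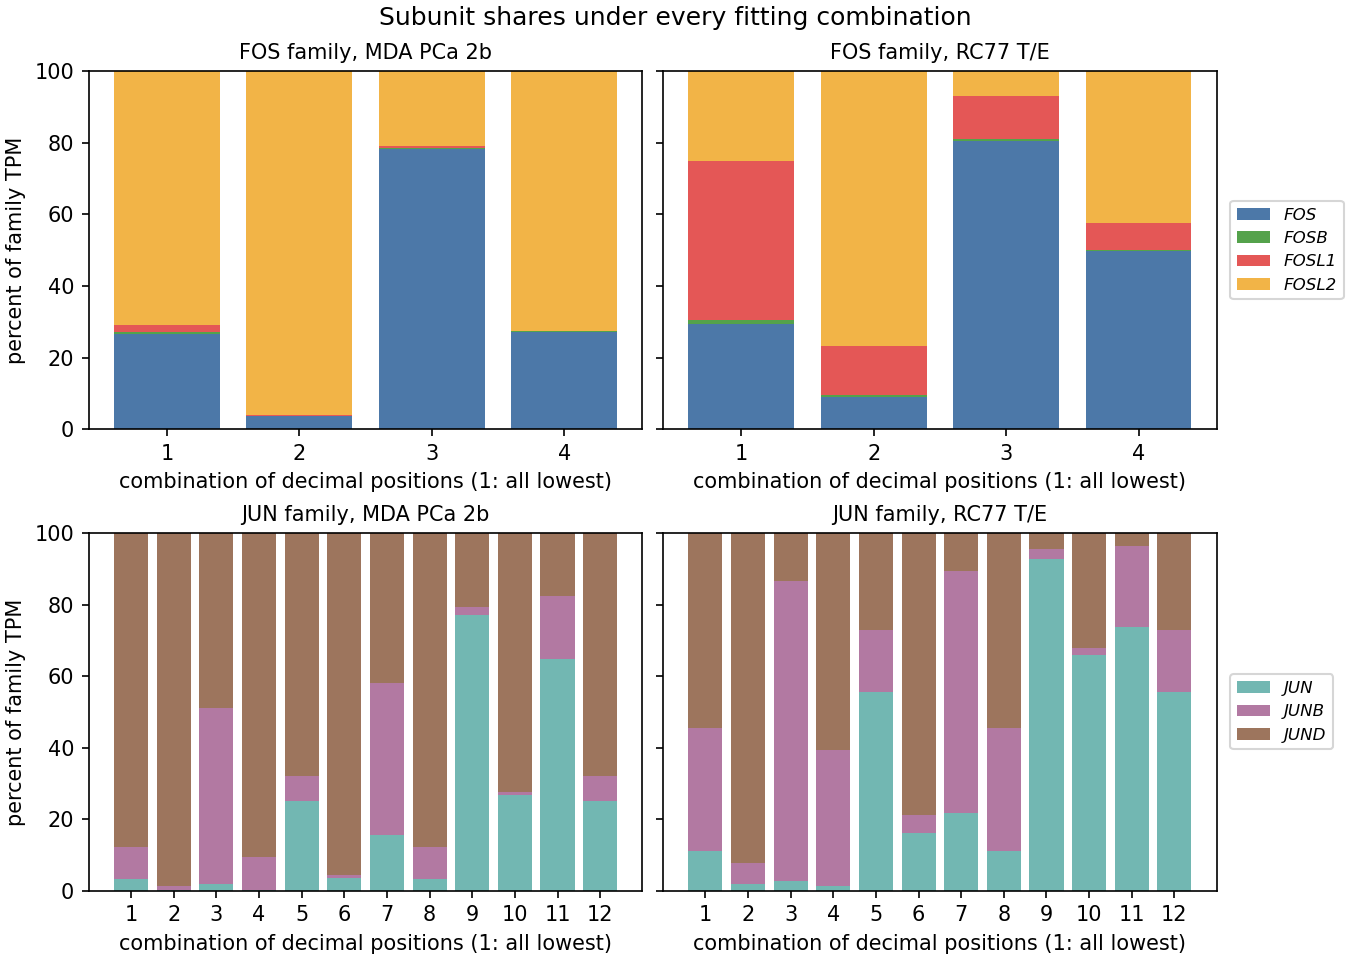
Percent of the summed TPM of the FOS family (top) and the JUN family (bottom) held by each subunit in MDA PCa 2b (left) and RC77 T/E (right), with a bar for every combination of decimal positions that matched the deposited values. JUND leads 8 of 12 bars for MDA PCa 2b against 5 of 12 for RC77 T/E.

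Ratios of ratios need neither the decimal position nor a common scale between the libraries. Relative to JUND, JUN was 5.52 times and JUNB 6.25 times more abundant in RC77 T/E than in the other line, FOSL2 6.69 times, FOS 20.9 times and FOSL1 416 times. Relative to FOSL2, FOSL1 was 62.2 times more abundant. Set against JUND, each of the other 6 subunits was therefore more abundant in RC77 T/E, whichever positions hold. This fixes no share of the summed AP-1 mRNA: in that sum the shares of JUN, JUNB and FOSL2 were higher or lower in RC77 T/E depending on the combination. The summed TPM of the FOS family was between 5.89 and 14.3 times higher in RC77 T/E over the combinations, whereas for the JUN family the ratio ran from 0.754 to 3.43, so the direction of the JUN family sum is not determined.

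Rank places the settled levels. FOSL1 stood below 12346 genes in MDA PCa 2b, at either end of the other genes' positions, and EGR1 below 11548. In RC77 T/E, 883 genes were higher than FOSL1 and 734 higher than EGR1 with all other genes at their lowest positions, but 6441 and 6164 at their highest. The summed TPM speaks to those ends: it was 751125 in MDA PCa 2b against 682469 in RC77 T/E at the lowest positions and 2416346 and 2140326 at the highest, although TPM adds up to at most 1000000. At most 14.9% and 21.8% of the TPM that the highest positions would add can therefore be real, which bounds the sum and settles no single gene. At the lowest positions 754 genes were higher than JUND in MDA PCa 2b against 1224 in RC77 T/E.

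The remaining lists give the surroundings of AP-1. Their counts stand beside 19.4% of the 11624 genes higher by 2-fold or more in RC77 T/E, 20.0% in MDA PCa 2b and 60.7% within 2-fold. Of 31 other immediate-early genes 28 were measured and 20 had a mean of 1 TPM or more. Of these 13 were higher by 2-fold or more in RC77 T/E against 2 in MDA PCa 2b, with a median log2 difference of 1.80 beside -0.15 for all genes. Of the 20, 4 passed the filter through RC77 T/E alone and so had to differ, and with no filter the median was 0.75 beside 0 for all genes. The 2 calls in MDA PCa 2b fell to 1 with centring and with upper quartile scaling, while those of all 11624 genes fell from 2324 to 1880 and 1828, and with no filter they were 3, with KLF2. PHLDA1 was at 0.472 TPM in MDA PCa 2b against 68.8 TPM in RC77 T/E, and HBEGF, an EGF receptor ligand, was at 0.661 and 19.8 TPM. KLF6, which had the list's highest mean of both libraries at the lowest positions, was at 2.62 and 73.8 TPM or 10 times that. Higher in MDA PCa 2b were the orphan receptor gene NR4A1 (10.6 and 2.69 TPM) and the antiproliferative gene BTG2 (4.27 and 1.58 TPM), each at the lowest position. For BTG2 3 positions matched.

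ERK feedback inhibitors, which ERK signals themselves induce, did not move as 1 group. All 10 had a mean of 1 TPM or more, 2 were higher by 2-fold or more in RC77 T/E against 5 in MDA PCa 2b, and the median log2 difference was -1.04, beside 19.4%, 20.0% and -0.15 for all genes. Of the 10, 1 (SPRY2) passed the filter through RC77 T/E alone and so had to differ. SPRY2 was at 0.123 TPM in MDA PCa 2b against 7.80 TPM in RC77 T/E, and the ERK phosphatase DUSP6 at 1.28 and 9.22 TPM at the lowest position. In the other direction SPRY4 was at 12.5 and 1.37 TPM, DUSP2 at 20.7 and 4.08 TPM and DUSP4 at 8.94 and 2.80 TPM, each at the lowest position. DUSP1, an immediate-early phosphatase of the MAP kinases, was at 20.9 and 22.2 TPM, both settled.

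Most kinases upstream were within 2-fold. Of 24 MAP kinase cascade and serum response factor genes 21 were measured and 20 had a mean of 1 TPM or more, and 16 of these were within 2-fold, beside 60.7% of all genes. ELK3, an ETS partner of serum response factor, was the widest, at 0.840 TPM in MDA PCa 2b against 36.4 TPM in RC77 T/E. Of the 20, 1 (ELK3) passed the filter through RC77 T/E alone and so had to differ. MAPK14, the p38 kinase, was at 8.25 and 18.2 TPM. Higher in MDA PCa 2b were MAPK9, a JNK kinase (22.3 and 10.1 TPM), and MAP2K4, which activates JNK (19.6 and 8.11 TPM at the lowest position). MAP2K2 was the most abundant, at 67.8 and 50.9 TPM or 10 times that, and the median log2 difference was -0.44, or -0.29 with centring on the median of all genes and -0.22 with upper quartile scaling. The 2 calls higher in MDA PCa 2b fell to 1 with that centring and to 0 with that scaling.

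Other bZIP factors, which can pair with JUN or FOS proteins or compete for related sites, held no gene with a mean of 1 TPM or more that was called higher in RC77 T/E. Of 16 genes measured 13 had a mean of 1 TPM or more, 5 were at least 2-fold higher in MDA PCa 2b and 8 were within 2-fold, beside 20.0% and 60.7% of all genes. The median log2 difference was -0.36, or -0.21 with centring on the median of all genes and -0.15 with upper quartile scaling. ATF5 had the list's highest mean of both libraries at the lowest positions. It was at 35.9 TPM in MDA PCa 2b against 8.17 TPM in RC77 T/E at the lowest position. JDP2, a repressor that dimerises with JUN, was at 15.8 and 3.42 TPM, also at the lowest position.

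Textbook AP-1 target genes were mostly higher in RC77 T/E. Of 16 measured 13 had a mean of 1 TPM or more, 8 were higher by 2-fold or more in RC77 T/E against 2 in MDA PCa 2b, and the median log2 difference was 3.58, beside 19.4%, 20.0% and -0.15 for all genes. Of the 13, 6 passed the filter through RC77 T/E alone and 2 through MDA PCa 2b alone, so that they had to differ, and with no filter the median was 1.68 beside 0 for all genes. MMP9, a matrix metalloproteinase, was at 0.0510 TPM in MDA PCa 2b against 266 TPM in RC77 T/E, and the hyaluronan receptor gene CD44 was at 0.786 and 364 TPM. MMP10 (3.97 and 0.213 TPM) and HMOX1 (4.87 and 0.841 TPM) were higher in MDA PCa 2b. Many of these genes are also known from basal epithelial cells, and the basal markers moved with them: the summed TPM of KRT5, KRT14, TP63 and ITGA6 at the lowest positions was 39.0 in MDA PCa 2b against 7329 in RC77 T/E, with TP63 listed at 0 in the former. The part of cell type, medium or AP-1 in these differences was not tested.

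**Figure D4:**
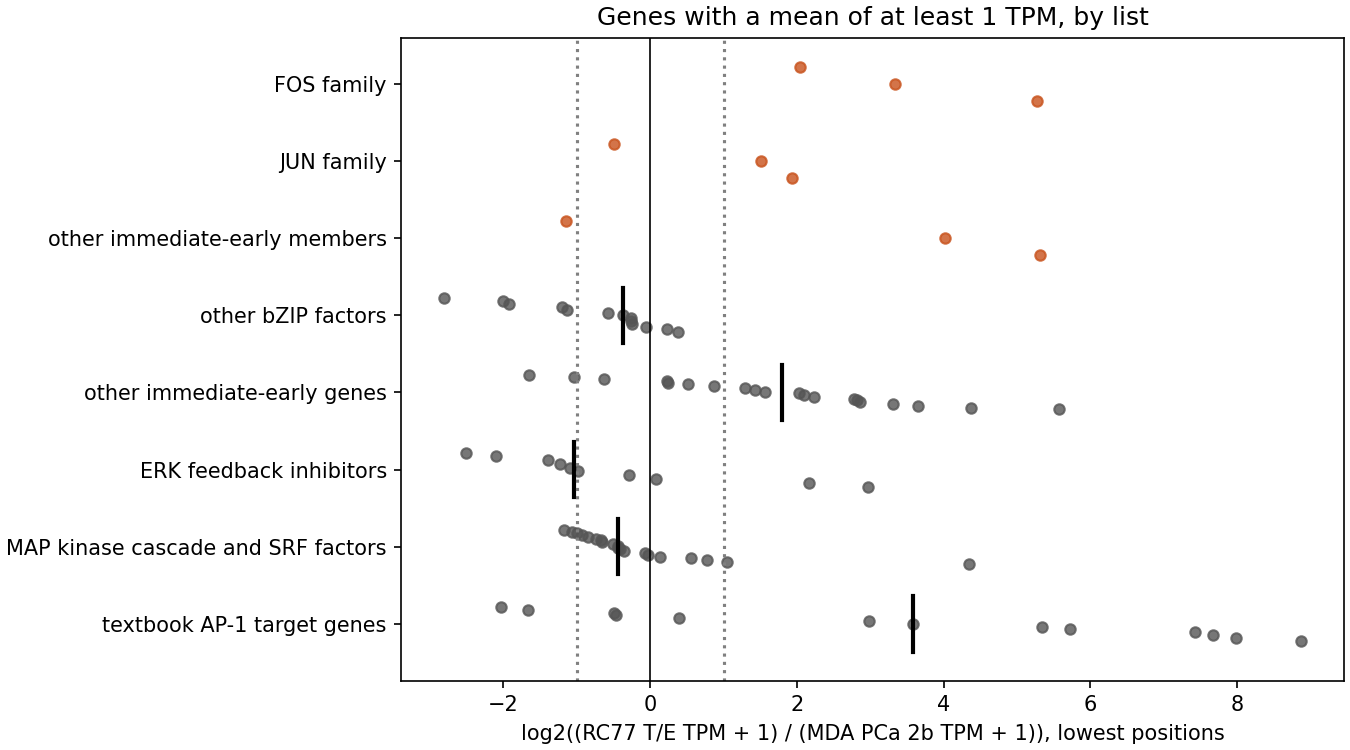
Log2 difference between the cell lines (RC77 T/E over MDA PCa 2b, TPM + 1, lowest positions) of genes whose mean was 1 TPM or more. Each point is a gene, the 3 upper lines hold the AP-1 and immediate-early genes described first (orange), black bars are the medians of the other lists and dotted lines mark 2-fold. The median is 1.80 for other immediate-early genes and -1.04 for ERK feedback inhibitors.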

How the data were processed

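Total RNA of both cell lines was sequenced as paired-end, directional libraries. The submitters' processing notes name CASAVA, FastQC 0.11.9, Trimmomatic 0.38, Salmon 1.2.0 and GRCh38; the strand setting of the counting was not given in the sources used here. The authors deposited TPM per locus with mean and standard error. Since ordinary TPM values had been assumed in the design, decimal marks were restored first: every position with 1 to 3 digits before and at least 3 after the mark was tried, and pairs whose mean and standard error matched as written were kept. Of 22791 lines, 1 position matched in 16284 and several in 6507. Values in the study's supplementary files were not used for this. Where several matched, the lowest was used for log2 differences, counts and medians. Each of 22704 loci was used once, and loci of a symbol were summed. Log2 differences used a pseudocount of 1 TPM and so understate changes at low levels. No test was made, each line having 1 library. Overlaps and strands came from GENCODE release 29. Members and lists were chosen with earlier results of these data known. Named were all members, genes overlapping them, and per list the 3 with the largest log2 difference in each direction among those past 2-fold and the one with the highest mean. PTPRC, KRT18 and the other markers come from fixed marker lists. A few genes of the lists that this rule names are not reported here, though the counts and medians include them. CCN1, CCN2, MCL1, NRAS, MRTFA, MRTFB, FLJ31356, AC104695.3 and IER3-AS1 were not analysed here. Alternatives were another pseudocount, filter, threshold, scaling, decimal position and the largest locus. Python 3.11.15, numpy 2.4.6 and matplotlib 3.10.9 were used.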

Additional observations from a re-analysis of the deposited data

How the results depend on the processing

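No paired analysis was possible because there was 1 library for either line. A value counted as changed when it moved by more than 1.5 times. Of 50 alternative log2 differences of single members, 48 stayed within that and 0 changed sign: FOSB was 3.11 with a pseudocount of 0.1 TPM and JUND -0.27 with upper quartile scaling. Of 90 alternatives for the context lists 80 stayed within it. With centring on the median, 0 members were called higher in MDA PCa 2b, as were 1 other immediate-early gene and 1 MAP kinase cascade gene, and list medians were -0.21 for other bZIP factors and -0.29 for the MAP kinase cascade. With upper quartile scaling, these were 0, 1 and 0 genes and medians of -0.15 and -0.22. With no filter on low values the median was 0.75 for other immediate-early genes and 1.68 for AP-1 targets. At 1 TPM, 7 of the 10 members were present in MDA PCa 2b against 10 in RC77 T/E, beside 10607 and 11286 of all 21382 genes. At a threshold of 5 TPM, 3 members were present in MDA PCa 2b against 9 in RC77 T/E, or 7 and 9 with the highest decimal positions. All genes were not counted at 5 TPM. Shares moved most, all through the decimal position. In MDA PCa 2b the lowest and highest shares were 3.61% and 78.4% for FOS, 0.0602% for FOSB, 0.207% for FOSL1 and 20.8% for FOSL2 (lowest), 0.335% and 77.1% for JUN, 0.733% and 49.4% for JUNB, and 17.5% for JUND (lowest). In RC77 T/E they were 9.04% and 80.6% for FOS, 0.197% for FOSB and 7.54% for FOSL1 (lowest), 6.86% and 76.9% for FOSL2, 1.24% and 92.6% for JUN, 2.03% and 84.0% for JUNB, and 3.60% and 92.3% for JUND. Depth is unknown, so the precision of values near 0 cannot be given.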
